A study of Rattus norvegicus with 29 samples.

Results

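Continuous access to ethanol was compared with water alone in the accumbens shell of alcohol-preferring rats. The comparison used 19 of the 29 arrays of the series, the 10 whose titles name continuous ethanol and the 9 whose titles name water only. All animals were P rats, a line selected for voluntary ethanol drinking, so the water group had the same selected background and neither group stands for unselected rats. The 10 limited ethanol arrays, from P rats with limited access, entered the same fit and are given beside the continuous values. Sex, age, the amount drunk, the length of exposure and the time between the last drink and death are not stated in the sources used here. The design gives 10 samples a group, of which 9 water arrays were analysed here. No label ties an array to 1 animal, so the p-values describe the variation between these arrays, part of which may be technical.

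The accumbens shell is a reward region of the ventral striatum. Its main cells are GABAergic medium spiny neurons, which receive dopamine from the midbrain and glutamate from cortex, amygdala and hippocampus. When such neurons are driven by synaptic input, calcium and cAMP activate the MAP kinase and CREB pathways, and a set of immediate early genes is transcribed within minutes without new protein synthesis. Their products include transcription factors (AP-1, Nr4a and Egr proteins), phosphatases that shut the kinases off again, and proteins that act at the synapse, such as Arc and the short form of Homer1. Of 15 medium spiny neuron markers 14 were measured, with mean log2 values from 9.61 to 13.54, so transcripts of these neurons were present. That does not by itself place the tissue in the shell. Penk, the enkephalin precursor of indirect pathway neurons, was 13.56 ± 0.11 (SD, n = 9) in water arrays.

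Values are log2 expression values (RMA) per probe set, and 21729 probe sets above the dimmest 30 percent were tested. Several properties of the arrays differed between the groups and are given here because they touch the results below. The standard deviation over the probe sets of 1 array averaged 2.18 ± 0.01 (SD, n = 10) for continuous ethanol and 2.16 ± 0.02 (n = 9) for water (exact two-sided permutation p = 0.0157, adjusted over 4 measures p = 0.0437). For beta-actin the difference between 3 prime and 5 prime probe sets, which rises when RNA is degraded or labelling is incomplete, averaged 1.27 ± 0.08 against 1.20 ± 0.05 (exact p = 0.0219, adjusted p = 0.0437), while that of GAPDH was -0.14 ± 0.05 against -0.13 ± 0.05 (exact p = 0.603). On the second principal component, 5 arrays lay apart from the rest, water replicates 2, 5 and 6 and limited replicates 6 and 7, and 0 continuous arrays were among them. The scores of continuous and water arrays differed there at an exact p of 0.0360 (adjusted p = 0.0480). Continuous replicate 7 lay far from its group for several single genes, among them Homer1, Ppp1r35 and Per3.

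With continuous ethanol 15 genes rose, among them the immediate early genes Fos, Junb, Nr4a1, Ier2 and Arc, and 6 genes fell, among them Adgrl4, Angptl4 and Slc2a1. Fos and Nr4a1 rose 1.72-fold and 1.62-fold, Arc rose 1.53-fold, and Homer1 had 1 probe set that rose and 1 that fell by similar amounts. In all, 33 of 21729 probe sets (0.152% of those tested) passed an adjusted p of 0.05 in limma, 19 higher and 14 lower with continuous ethanol (0.0874% and 0.0644%). Single arrays moved this count: leaving out water replicate 5 gave 18, water replicate 4 gave 94, water replicate 8 gave 59 and limited replicate 6 gave 66. It was 12 when the 5 arrays that lay apart were left out and 11 with the standard deviation of each array as a covariate. The changes were small, from 1.14-fold to 1.72-fold, with a median size of 0.37 on the log2 scale. Because whole tissue was measured, a lower level can come from fewer cells of a type or from less RNA in each cell, and these cannot be told apart. Of the 33 probe sets, 22 carried 1 gene symbol and stood for 20 genes.

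The groups of arrays overlapped for most called probe sets. For 5 of the 33, every continuous array lay beyond every water array, 2 of them higher (Arc and Gadd45g) and 3 lower (all unnamed). Over all tested probe sets 0.0322% had groups that did not overlap (0.0138% higher and 0.0184% lower), and 2 of these were not called. All 33 changes kept their sign under the 15 alternatives that could be fitted to them and without each of the 29 arrays in turn. The call itself was kept under every alternative fitted for 10 probe sets, those of Nr4a1, Gadd45g, Fos, Junb, Arc, the brighter of Dusp1, the lower of Homer1 and 3 unnamed ones. Without adjustment 3499 probe sets (16.1%) had a p under 0.05, 2090 of them higher (9.62%) and 1409 lower (6.48%), and the median of all changes was 0.00.

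**Figure D1:**
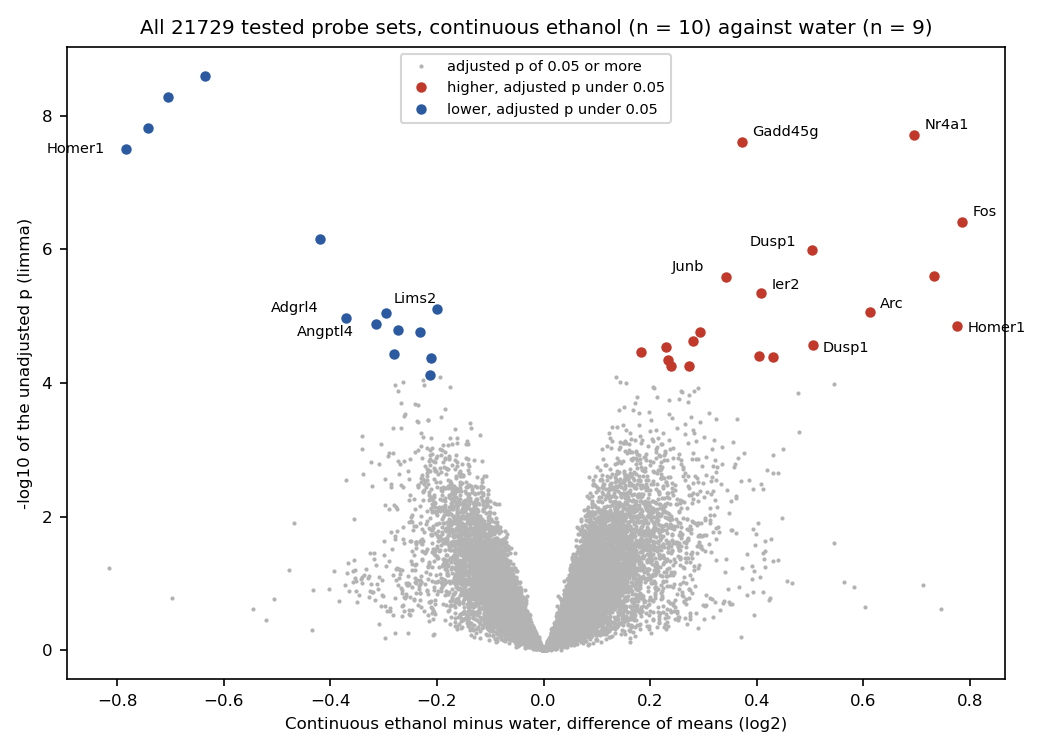
Difference of group means (log2, x axis) against -log10 of the unadjusted limma p (y axis) for the 21729 tested probe sets, with the 19 called higher in red and the 14 called lower in blue. The called probe sets with the largest sizes are Fos and Homer1 on the right and Homer1 on the left, and some uncalled probe sets with sizes over 0.5 lie lower on the y axis.

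AP-1 is a dimer of a Fos and a Jun protein that binds DNA and drives later waves of transcription. Of 11 listed AP-1 genes 7 were measured on their brightest probe set, and Fos and Junb rose while 5 did not pass. Fos ranged from 9.91 to 10.58 over the 9 water arrays, with a median of 10.39, and from 10.50 to 11.41 over the 10 continuous arrays, with a median of 11.03. The change was 0.79 ± 0.12 (SE, adjusted p = 0.00120), and 9 of 10 continuous arrays lay above the highest water array. A second Fos probe set was at -0.01 ± 0.06 (adjusted p = 0.968), so only 1 of its 2 tested probe sets rose. The second was much dimmer, with a mean of 7.12 over all arrays against 10.68 for the first. It ranged from 6.70 to 7.20 in water. Because it lay near the cut for dim probe sets, its lack of change cannot decide whether the 2 probe sets disagree. Junb was 9.56 to 9.73 in water (median 9.68) and 9.70 to 10.16 with continuous ethanol (median 10.06), a change of 0.34 ± 0.06 (adjusted p = 0.00506). The water arrays were narrowly spread for Junb, and 9 of 10 continuous arrays exceeded all of them.

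Jun, the partner that most often pairs with Fos, was measured by 3 probe sets with unequal results. The called 1 rose by 0.29 ± 0.06 (adjusted p = 0.0179), from a median of 9.86 (range 9.68 to 10.13) to 10.19 (9.97 to 10.35), with 7 of 10 continuous arrays above all water arrays. The other pair did not pass, at 0.20 ± 0.07 and 0.14 ± 0.05 (adjusted p = 0.196 and 0.212). The call was lost when water replicate 5 was left out and under 5 of 14 alternatives, among them the array SD covariate (adjusted p = 0.284), the 5 arrays that lay apart left out (0.0517) and the fit on continuous and water arrays only. The remaining AP-1 genes had values near 0: Jund 0.05 ± 0.05, Fosl2 0.06 ± 0.11, Fosb 0.03 ± 0.09 and Batf 0.02 ± 0.07. The median change of the 7 AP-1 genes was 0.06.

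Nr4a1 encodes an orphan nuclear receptor that acts without a known endogenous ligand. It was 10.10 to 10.47 in water (median 10.27) and 10.44 to 11.28 with continuous ethanol (median 10.995), and only the lowest continuous array reached into the water range. The change was 0.70 ± 0.09 (adjusted p = 1.05e-04), and it stayed between 0.64 and 0.73 under the 15 alternatives. Its relative Nr4a3 had a change of 0.54 ± 0.12 that missed the threshold (adjusted p = 0.0559), with a median of 7.80 in water and 8.47 with continuous ethanol and 10 of 10 arrays above the water mean.

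Ier2, a nuclear protein induced by growth factors and depolarization, ranged from 8.11 to 8.76 in water (median 8.30) and from 8.50 to 8.99 with continuous ethanol (median 8.80). It rose by 0.41 ± 0.07 (adjusted p = 0.00821), and 1 high water array (replicate 2) reached into the range of 4 continuous arrays. Tgif1, a homeodomain repressor of TGF-beta target genes, rose by 0.28 ± 0.06 (adjusted p = 0.0235) from a median of 7.53 to 7.89. That call was lost in 7 of 14 alternatives and without any of 5 single arrays: continuous replicates 6, 8 and 9 and water replicates 5 and 6. Among the 22 measured immediate early transcription factors outside AP-1, 3 rose, 0 fell and 19 did not pass, and the median was 0.10. At an unadjusted p under 0.05 in limma, 8 were higher (36.4%, against 9.62% of all probe sets) and 0 lower. For this and the other lists with genes that rose, the share called higher over all probe sets was 0.0874%. The lists were chosen with earlier results of these data known, so these shares are descriptive. Members that did not pass included Klf2 at 0.36 ± 0.10, Klf4 at 0.30 ± 0.11 and Csrnp1 at 0.21 ± 0.06 (adjusted p = 0.145, 0.209 and 0.157). Egr2 was at 0.21 ± 0.11 and Egr4 at 0.14 ± 0.08 (adjusted p = 0.334 and 0.344).

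Dusp1 dephosphorylates and so inactivates MAP kinases, and it is induced by the pathway it ends. Both of its probe sets rose. The brighter was 10.64 to 11.14 in water (median 10.85) and 10.99 to 11.61 with continuous ethanol (median 11.39), a change of 0.50 ± 0.08 (adjusted p = 0.00245). The dimmer went from a median of 8.20 (range 7.93 to 8.57) to 8.74 (8.09 to 9.10), a change of 0.50 ± 0.10 (adjusted p = 0.0257) that was lost without any of 5 single arrays: continuous replicates 4, 8 and 9 and water replicates 5 and 6. Of 17 measured feedback inhibitors 1 rose and 16 did not pass, with a median of 0.00. Dusp6, which acts on ERK, was at 0.17 ± 0.06 (adjusted p = 0.188) on its brightest probe set, and Spry2, an inhibitor of receptor tyrosine kinase signalling, at 0.14 ± 0.05 (adjusted p = 0.202).

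Gadd45g belongs to a family of small stress-induced proteins that bind kinases and take part in DNA demethylation. It was 9.02 to 9.30 in water (median 9.07) and 9.35 to 9.69 with continuous ethanol (median 9.43), so the groups did not overlap. The change of 0.37 ± 0.05 (adjusted p = 1.09e-04) was smaller than that of Fos but had a smaller SE. Its relatives Gadd45a and Gadd45b were at -0.05 ± 0.06 and 0.01 ± 0.06 (adjusted p = 0.676 and 0.978), and 1 of 10 measured growth arrest genes rose.

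**Figure D2:**
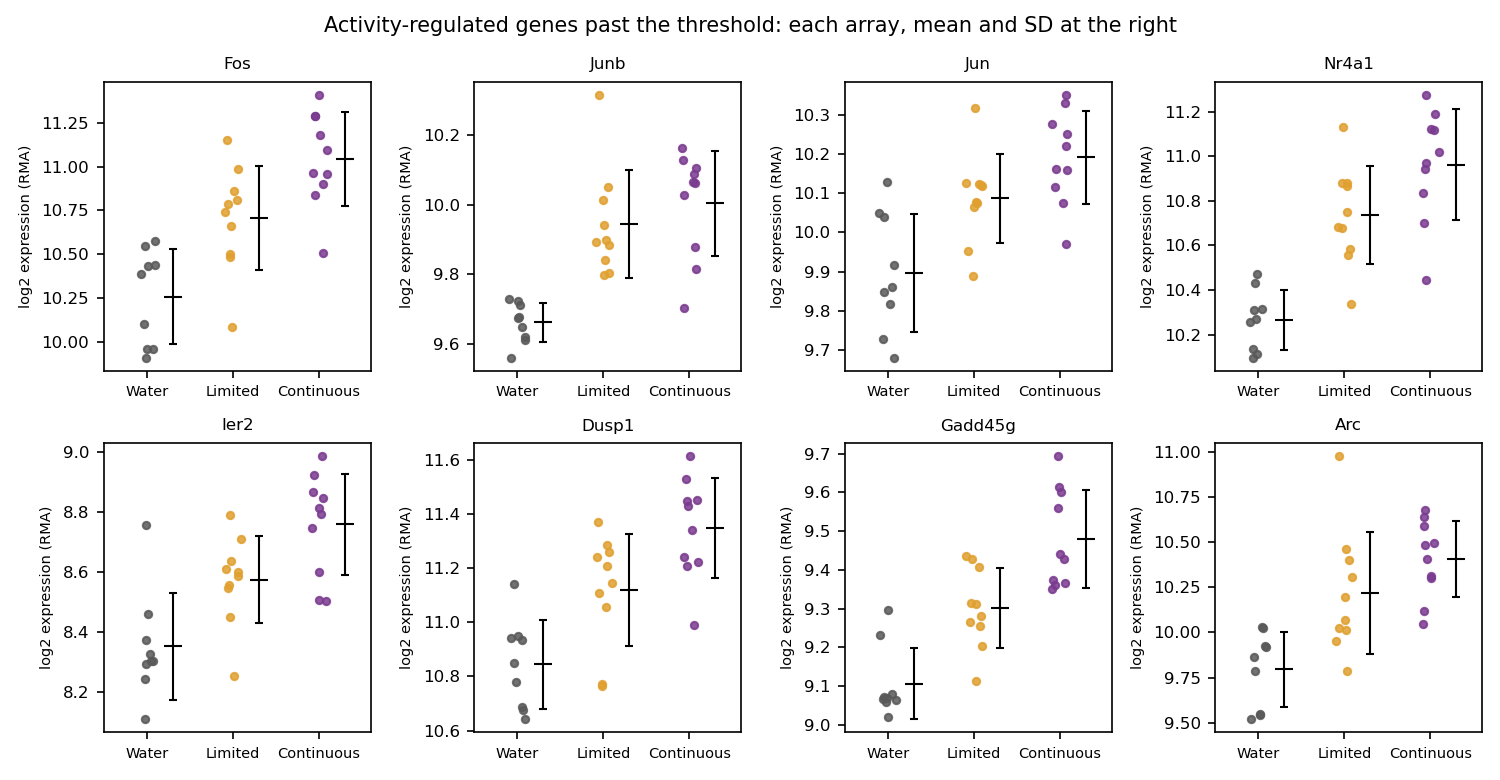
Log2 expression (RMA, y axis) of 8 activity-regulated genes in each water, limited and continuous array (points, x axis), with the mean and SD of each group at the right of its points. In Arc and Gadd45g the 10 continuous arrays lie above all 9 water arrays, in Fos, Junb, Nr4a1 and Dusp1 9 of 10 do, in Jun 7 and in Ier2 6.

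Arc protein remodels the postsynaptic membrane by removing AMPA receptors. It ranged from 9.52 to 10.03 in water (median 9.86) and from 10.05 to 10.68 with continuous ethanol (median 10.44), with no overlap. The change was 0.61 ± 0.11 (adjusted p = 0.0131). Of 19 measured activity-regulated synaptic effectors, Arc rose and 18 did not pass on their brightest probe set. Values that did not pass were 0.17 ± 0.05 for Tiparp and 0.17 ± 0.06 for the granin Scg2 (adjusted p = 0.136 and 0.179). The neurotrophin gene Bdnf was at -0.04 ± 0.10 (adjusted p = 0.876).

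Homer1 links metabotropic glutamate receptors to other postsynaptic proteins, and its activity-induced short forms lack the domain that joins the long forms to each other. Of its 5 tested probe sets, 1 rose, 1 fell and 3 did not pass. The 1 that rose was 9.20 to 10.00 in water (median 9.65) and 9.52 to 10.68 with continuous ethanol (median 10.49), a change of 0.78 ± 0.15 (adjusted p = 0.0169). Here 9 of 10 continuous arrays lay above all water arrays, while continuous replicate 7, at 9.52, lay below the water mean. This call was lost without water replicate 5 and under 4 of 14 alternatives: the array SD covariate (adjusted p = 0.195), the vessel marker covariate (0.0740), and the 5 arrays that lay apart left out (0.0883) or as a block.

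The Homer1 probe set that fell was 9.77 to 10.68 in water (median 10.29) and 9.19 to 9.81 with continuous ethanol (median 9.42), with 9 of 10 continuous arrays below all water arrays. Its change was -0.78 ± 0.11 (adjusted p = 1.14e-04). The other 3 probe sets had changes of -0.02 ± 0.05, -0.01 ± 0.08 and -0.00 ± 0.09. Which transcripts each probe set detects was not given in the sources used here, so the opposite changes cannot be assigned to forms of the gene. Of 13 other measured postsynaptic scaffold genes 0 passed, with Dlg1 at -0.12 ± 0.03 and Shank3 at -0.12 ± 0.06 (adjusted p = 0.125 and 0.308), and their median was -0.02.

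Among the continuous arrays, those with more Fos also had more Gadd45g. These 14 relations, of 7 called probe sets with Fos in each group, were chosen with the results known. Over the 10 continuous arrays Pearson's r between Fos and Gadd45g was 0.84 (permutation p = 0.00158, adjusted over the 14 p = 0.0111) and Spearman's rho was 0.88 (permutation p = 0.00158, adjusted p = 0.0221). It was 0.87 without the 2 arrays farthest from the median of Fos. Fos and the Homer1 probe set that rose had an r of 0.86 (permutation p = 0.000890, adjusted p = 0.0111) and a rho of 0.81 (permutation p = 0.00762, adjusted p = 0.0533), and r was 0.75 without those 2 arrays.

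Fos and Nr4a1 had an r of 0.80 (permutation p = 0.00561, adjusted p = 0.0262) and a rho of 0.62 (permutation p = 0.0613, adjusted p = 0.155), but r was 0.41 without the 2 arrays. Leaving these arrays out also narrows the range of Fos, so the lower r cannot show that the relation rests on them alone. Fos with Arc and with Junb gave r of 0.68 and 0.68 (permutation p = 0.0290 and 0.0333, both adjusted p = 0.0665), with rho of 0.59 and 0.43 (permutation p = 0.0807 and 0.220). Over the 9 water arrays 0 of 7 relations passed after adjustment. There Fos and the rising Homer1 probe set had an r of 0.77 (exact permutation p = 0.0208, adjusted p = 0.0582), and Fos and Arc had an r of -0.24 (exact permutation p = 0.526). The Homer1 probe set that fell with ethanol had an r of 0.73 with Fos in water (exact permutation p = 0.0194, adjusted p = 0.0582, rho 0.70). In the continuous arrays its r with Fos was -0.08 (permutation p = 0.831). Without the 2 arrays farthest from the median of Fos in each group, these were 0.68 in water and 0.47 in continuous. The difference between the groups was not tested. Fos and the brighter Dusp1 probe set had an r of 0.45 in the continuous arrays (permutation p = 0.190), and of -0.20 without the 2 arrays. All these relations are among arrays of 1 group and share the array's own RNA and hybridisation.

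The promoters of the genes that rose were searched for elements through which activity is known to act. A 300-base window, 250 bases before to 50 after the annotated start (RefSeq, rat build GRCr8), was found for 11 of the 15 genes that rose. Fos and Arc had no window, so their promoters were not searched. The cAMP response element (CRE), spelled TGACGTCA and searched on both strands, is bound by CREB. It occurred in 2 of the 11, Dusp1 and Ier2, and in 3.22% of the 9409 windows of tested genes. The AP-1 site TGANTCA, also searched on both strands, was in 2 of the 11, Idi1 and Psmc6, against 4.76%. These 4 windows are shown because they hold a full element, which is in capitals.

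Dusp1, chr10:17184603-17184902, plus strand: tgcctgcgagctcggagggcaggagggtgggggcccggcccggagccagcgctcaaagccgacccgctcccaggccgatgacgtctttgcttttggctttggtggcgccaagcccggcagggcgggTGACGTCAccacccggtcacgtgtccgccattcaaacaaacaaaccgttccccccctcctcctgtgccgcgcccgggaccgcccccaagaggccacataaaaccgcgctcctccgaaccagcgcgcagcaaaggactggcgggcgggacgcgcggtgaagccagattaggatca
Ier2, chr19:40399123-40399422, plus strand: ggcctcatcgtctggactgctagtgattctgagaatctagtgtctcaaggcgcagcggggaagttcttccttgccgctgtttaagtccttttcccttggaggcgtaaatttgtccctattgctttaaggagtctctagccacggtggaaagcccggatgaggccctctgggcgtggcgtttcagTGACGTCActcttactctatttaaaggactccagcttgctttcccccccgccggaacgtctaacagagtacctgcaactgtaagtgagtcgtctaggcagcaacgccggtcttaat
Idi1, chr17:66547475-66547774, minus strand: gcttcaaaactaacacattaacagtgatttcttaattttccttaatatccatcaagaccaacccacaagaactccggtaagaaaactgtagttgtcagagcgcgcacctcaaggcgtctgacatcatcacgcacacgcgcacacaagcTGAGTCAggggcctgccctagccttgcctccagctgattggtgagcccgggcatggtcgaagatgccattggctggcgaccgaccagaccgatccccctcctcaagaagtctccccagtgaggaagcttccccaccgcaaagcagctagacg
Psmc6, chr15:21022064-21022363, plus strand: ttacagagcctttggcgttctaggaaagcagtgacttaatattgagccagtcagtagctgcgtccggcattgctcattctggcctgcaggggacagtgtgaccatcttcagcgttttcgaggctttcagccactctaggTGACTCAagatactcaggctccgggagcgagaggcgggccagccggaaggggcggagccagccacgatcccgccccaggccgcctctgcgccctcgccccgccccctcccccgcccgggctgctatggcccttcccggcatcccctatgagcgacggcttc

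The CRE starts 124 bases before the start site in Dusp1 and 66 bases before it in Ier2. The half-site TGACG, which the full element contains, was in 5 of the 11 windows (Nr4a1, Dusp1, Junb, Ier2 and Ppp1r35) against 31.6% of the windows of tested genes, and Nr4a1 held it 4 times. The AP-1 site starts 102 bases before the start site in Idi1 and 111 in Psmc6. The CArG box of serum response factor was in 0 of the 11 against 1.29%. Of the 5 windows of genes that fell, 0 held the full CRE, the AP-1 site or the CArG box. A match describes the letters of these windows only, and such short windows leave out distal elements.

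Among the probe sets that fell were 3 unnamed ones with the smallest p of all. Probe set 1380527_at was 8.40 to 8.87 in water (median 8.68) and 7.66 to 8.27 with continuous ethanol (median 7.99), a change of -0.64 ± 0.08 (adjusted p = 5.45e-05). Probe set 1396029_at was 9.55 to 9.89 in water (median 9.76) and 8.39 to 9.28 with continuous ethanol (median 9.09), a change of -0.70 ± 0.09 (adjusted p = 5.60e-05), and its lowest value, 8.39, was that of continuous replicate 7. In both, and in 1 more unnamed probe set (-0.74 ± 0.10, adjusted p = 1.05e-04), the groups did not overlap. In all, 8 of the 14 probe sets that fell and 3 of the 19 that rose had no single gene symbol. Of the latter, 1386995_at rose by 0.73 ± 0.13 (adjusted p = 0.00506) and 1398566_at by 0.40 ± 0.08 (adjusted p = 0.0316). Probe set 1398566_at was dim, at 6.43 to 6.97 in water (mean 6.73) and with a mean of 7.13 with continuous ethanol. Its water mean lay below the cut for dim probe sets, which used the mean over all arrays. It was therefore tested only because of its higher values in the ethanol arrays, and its rise lies close to that cut.

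The named genes that fell, apart from Homer1, were Adgrl4, Angptl4, Lims2, Slc2a1 and Nat8f3. Adgrl4, an adhesion G-protein-coupled receptor of endothelium, was 8.72 to 9.26 in water (median 8.96) and 8.37 to 8.80 with continuous ethanol (median 8.64), a change of -0.37 ± 0.07 (adjusted p = 0.0143). Angptl4, a secreted inhibitor of lipoprotein lipase, was 8.94 to 9.34 in water (median 9.21) and 8.74 to 9.002 with continuous ethanol (median 8.86), a change of -0.31 ± 0.06 (adjusted p = 0.0165). Slc2a1, the glucose carrier of brain capillaries, was 11.37 to 11.78 in water (median 11.46) and 11.21 to 11.39 with continuous ethanol (median 11.33), a change of -0.21 ± 0.05 (adjusted p = 0.0492). The groups overlapped at their edges in all of these, with 7, 8 and 9 of 10 continuous arrays below every water array. The Adgrl4 call was lost under 5 of 15 alternatives and the Angptl4 call under 4, and both were kept without each array in turn. The Slc2a1 call was lost under 10 of 15 alternatives, including no filter on dim probe sets, and without any of 19 of the 29 single arrays.

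Lims2, a LIM-domain adaptor of integrin adhesions, fell by 0.30 ± 0.06 (adjusted p = 0.0131) from a median of 8.56 (range 8.35 to 8.89) to 8.28 (8.17 to 8.36). That call was lost under 5 of 15 alternatives, among them array weights and the array SD covariate (adjusted p = 0.0545). It was kept without each array in turn. Nat8f3, of a family of acetyltransferases, fell by 0.21 ± 0.04 (adjusted p = 0.0318) from a median of 10.85 (10.71 to 10.99) to 10.62 (10.52 to 10.85). The Nat8f3 call was lost under 7 of 15 alternatives, among them the replicate block (adjusted p = 0.0809), and without any of 11 single arrays: continuous replicates 2, 3, 6, 8, 9 and 10 and water replicates 2, 3, 5, 6 and 9.

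Vessel markers had lower values in the continuous arrays without passing. Of 25 endothelial and mural markers 23 were measured, 0 passed, and 21 were below 0, with a median of -0.15. Their mean deviation per array ranged from -0.32 to 0.06 in continuous and from -0.07 to 0.38 in water arrays. Esam (-0.24 ± 0.06), the receptor Tie1 (-0.27 ± 0.08) and the tight junction gene Cldn5 (-0.21 ± 0.06) had the smallest p (adjusted p = 0.102, 0.141 and 0.150).

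With that mean as a covariate Adgrl4 was at -0.24 (adjusted p = 0.182), Angptl4 at -0.26 (0.210), Lims2 at -0.20 (0.182) and Slc2a1 at -0.15 (0.442). Fos, Nr4a1, Arc, Junb, Ier2, Gadd45g and the brighter Dusp1 probe set remained called there, as did Jun, the dimmer Dusp1 probe set and the Homer1 probe set that fell. The Homer1 probe set that rose (0.78, adjusted p = 0.0740), Tgif1 (0.28, 0.118) and the 5 genes with small rises given below did not. The 3 water arrays apart on the second component averaged 9.19 for Adgrl4 against 8.91 for the other 6, and 11.66 against 11.44 for Slc2a1. Without the 5 arrays that lay apart Adgrl4 was at -0.28 (adjusted p = 0.145), Slc2a1 at -0.14 (adjusted p = 0.331) and the vessel marker median at -0.07.

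Leptomeningeal markers, from the membrane at the brain surface, were below 0 in 16 of 16, with 0 called and a median of -0.28. Their mean deviation ranged from -1.44 to 0.62 in continuous and from -0.24 to 0.94 in water arrays, so the groups overlapped widely. Its median over arrays was 0.00 in continuous and 0.12 in water. Igf2, Islr and Aldh1a2 stood apart as low in continuous replicate 3, and Aldh1a2 as high in water replicate 2. With the mean deviation of these markers as a covariate the count of called probe sets was 37.

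**Figure D3:**
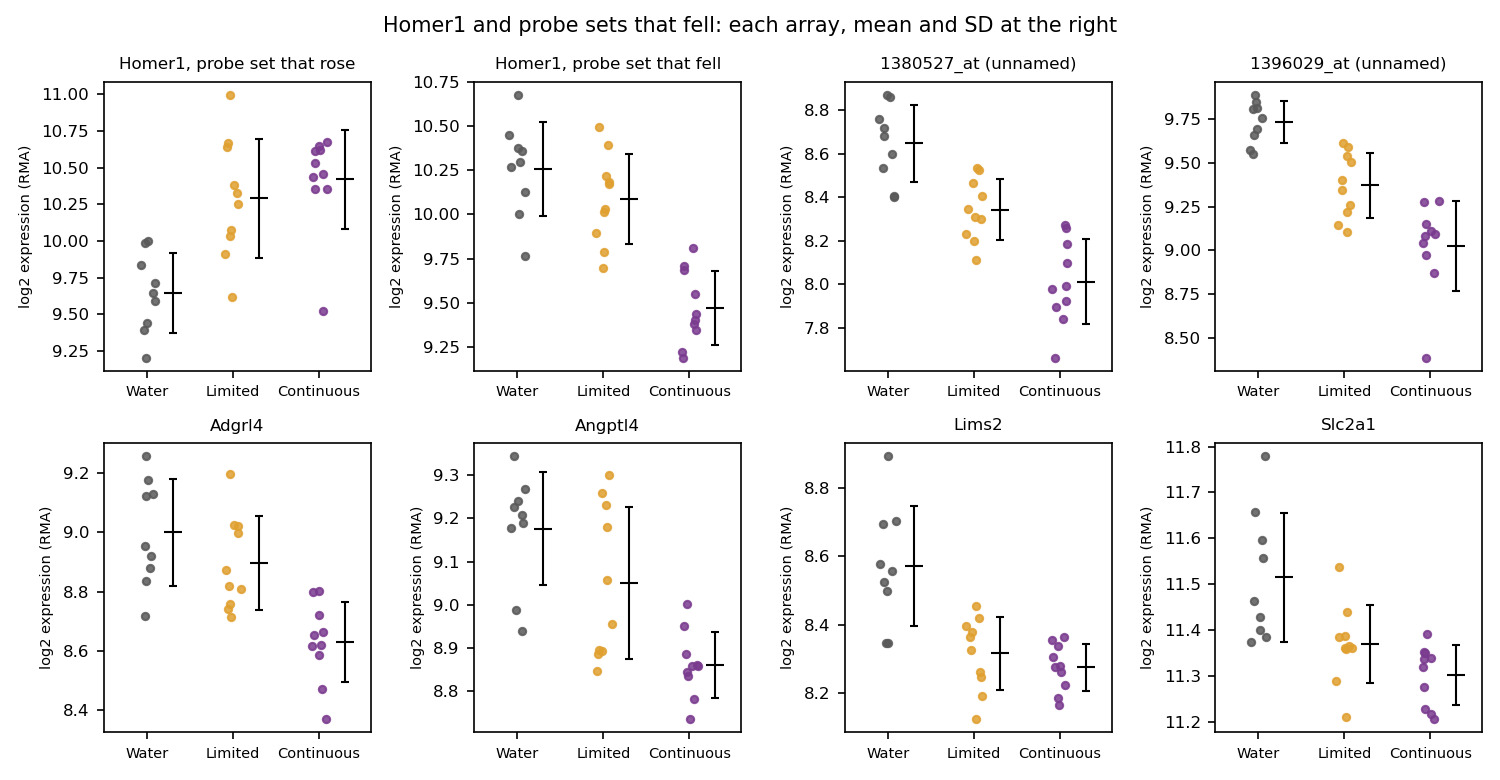
Log2 expression (RMA, y axis) of 2 Homer1 probe sets, 2 unnamed probe sets and 4 genes that fell, in each water, limited and continuous array (points, x axis), with the mean and SD of each group at the right of its points. The 2 unnamed probe sets separate the 10 continuous from the 9 water arrays, and continuous replicate 7 is the single low array of the Homer1 probe set that rose.

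A further 5 genes rose by small amounts. Ppp1r35, a centrosomal protein, rose by 0.23 ± 0.05 (adjusted p = 0.0257), with 3 of 10 continuous arrays above every water array and continuous replicate 7 the highest, at 9.73 against 9.28 to 9.46 in the others. Tp53rkb, a kinase that modifies p53 and transfer RNA, rose by 0.23 ± 0.05 (adjusted p = 0.0326), and the mitochondrial protein gene Maip1 by 0.24 ± 0.05 (adjusted p = 0.0379). Psmc6, an ATPase of the proteasome cap, rose by 0.27 ± 0.06 (adjusted p = 0.0379) on 1 probe set, while its other 2 had changes of 0.27 ± 0.07 and 0.36 ± 0.09 (adjusted p = 0.121 and 0.127). Idi1, an isomerase of the mevalonate pathway, rose by 0.18 ± 0.04 (adjusted p = 0.0302), and its other probe set was at 0.32 ± 0.09 (adjusted p = 0.144). These calls were lost under 7 of 15 alternatives (Ppp1r35, Tp53rkb, Idi1) or 10 of 14 (Maip1, Psmc6). Leaving out 1 of 4 arrays ended the call of Ppp1r35 (continuous replicate 8 and water replicates 2, 5 and 6), and 1 of 9 (Idi1), 11 (Tp53rkb) or 15 (Maip1, Psmc6) arrays ended the others.

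In the pathways of Psmc6 and Idi1 most genes had values above 0 without passing. Of 32 measured proteasome subunits 0 passed on the brightest probe set, 30 were above 0 and the median was 0.05, beside 0.00 and 52.5% above 0 for all probe sets. At an unadjusted p under 0.05, 8 were higher (against 9.62% of all probe sets) and 0 lower. Of 26 measured genes of cholesterol synthesis and uptake 1 rose, 23 were above 0 and the median was 0.07, with Insig1 at 0.11 ± 0.03 and Hsd17b7 at 0.21 ± 0.08 (adjusted p = 0.153 and 0.206).

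Several genes lay just outside the threshold. Per2, a repressor of the circadian clock, was 10.67 to 10.90 in water (median 10.82) and 10.40 to 10.66 with continuous ethanol (median 10.61). The groups did not overlap, and its change of -0.23 ± 0.05 missed the threshold (adjusted p = 0.0547) but passed under 7 of 15 alternatives, with adjusted p over these alternatives from 0.0140 to 0.432. Per3, whose lowest value (9.60) was that of continuous replicate 7, was at -0.15 ± 0.06 (adjusted p = 0.238) and Nr1d1, another clock repressor, at 0.08 ± 0.03 (adjusted p = 0.251). Of 20 measured clock genes 0 passed and the median was -0.01.

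Other genes next to the threshold with higher values were Ppp2ca, the catalytic subunit of protein phosphatase 2A (0.14 ± 0.03, adjusted p = 0.0547), Uchl5, a deubiquitinase of the proteasome (0.15 ± 0.03, adjusted p = 0.0547), Larp1b and Nudcd1 (0.20 ± 0.05 and 0.29 ± 0.07), Wdr3 of ribosome assembly (0.21 ± 0.05), Orc6 of the replication origin complex (0.26 ± 0.06) and the interferon-induced GTPase Mx2 (0.27 ± 0.06, adjusted p = 0.0625). Those with lower values were the phosphatidate phosphatase Lpin3 (-0.18 ± 0.04, adjusted p = 0.0561), the lipid scramblase Ano6 (-0.24 ± 0.06), the scaffold Nherf2 (-0.19 ± 0.04), Pth1r (-0.26 ± 0.06), Arhgap10 (-0.26 ± 0.06), Gemin5 (-0.19 ± 0.05) and the sphingolipid enzyme Degs2 (-0.22 ± 0.05, adjusted p = 0.0990).

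Receptors and signalling proteins of the medium spiny neuron did not pass. Of 19 measured dopamine and cAMP signalling genes 0 passed, 15 were below 0 and the median was -0.05, while 52.5% of all probe sets were above 0. As 0.152% of all probe sets were called, 0 calls lies near that share, here and in the other lists with 0 called. At an unadjusted p under 0.05 in limma, 5 of the 19 were lower (26.3%, against 6.48% of all probe sets) and 0 higher. Rasd2 and Rgs9, which restrain receptor signalling, were at -0.23 ± 0.06 and -0.20 ± 0.06 (adjusted p = 0.136 and 0.150), Gng7 at -0.16 ± 0.06 and Adcy5, the striatal adenylyl cyclase, at -0.15 ± 0.06. The dopamine receptor gene Drd2 ranged from 9.70 to 10.26 in water and from 9.64 to 10.08 with continuous ethanol, a change of -0.16 ± 0.06 (adjusted p = 0.218), and Drd1 was at -0.04 ± 0.06 (adjusted p = 0.728). The 14 measured medium spiny neuron markers, which share genes with that list, had a median of -0.07 with 0 called.

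Among 18 measured neuropeptides and their receptors 0 passed. The stress peptide gene Crh was at 0.31 ± 0.10 and its binding protein Crhbp at 0.20 ± 0.09 (adjusted p = 0.168 and 0.262), while Penk, Pdyn and Tac1 were at -0.04 ± 0.05, -0.05 ± 0.09 and -0.01 ± 0.06. Of 13 ionotropic glutamate receptor genes 0 passed, 11 were above 0 and the median was 0.07. Of 8 GABA-A receptor genes 0 passed with a median of -0.02, and of 12 genes of ethanol and aldehyde metabolism 0 passed with a median of -0.01. Of 22 CREB and MAP kinase pathway kinases and factors 0 passed with a median of -0.01, and Rps6ka4, a kinase of histone H3 and CREB, was at -0.13 ± 0.04 (adjusted p = 0.158).

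Several endoplasmic reticulum chaperone genes had values below 0 without passing. Of 28 measured chaperone and stress genes 0 passed, and 8 were lower at an unadjusted p under 0.05 (28.6%, against 6.48% of all probe sets), with a list median of -0.03. They included the lumenal chaperone Hspa5 (-0.14 ± 0.04), Creld2 (-0.14 ± 0.04), Manf (-0.10 ± 0.04) and Calr (-0.11 ± 0.04), with adjusted p of 0.149, 0.158, 0.203 and 0.207, and the heat shock gene Hspa1a was at -0.36 ± 0.13 (adjusted p = 0.203). Such a share was not particular to chaperones. It was 39.1% in the endothelial and mural, 35.0% in the glucocorticoid-responsive and 28.6% in the medium spiny neuron list. It was 26.7% in the hypoxia and PPAR and 26.3% in the dopamine and cAMP list, and smaller in the other lists.

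The glucocorticoid-responsive list had 20 measured genes, of which 1 rose (Dusp1) and 1 fell (Angptl4), with Fkbp5 at -0.24 ± 0.06 and Tsc22d3 at -0.14 ± 0.04 (adjusted p = 0.101 and 0.127) and a median of -0.04. Of 15 hypoxia and PPAR targets Angptl4 and Slc2a1 fell, 13 did not pass and the median was -0.02. Of 17 innate immune and interferon genes 0 passed and the median was 0.01.

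Markers of other cells were present on these arrays. In the astrocyte (13 measured), oligodendrocyte (14), microglia (13), cortical excitatory neuron (10), striatal interneuron (9), choroid plexus and ependyma (6) and neighbouring region (8) lists, 0 members passed. Their medians were -0.02, -0.02, -0.03, 0.05, 0.08, -0.03 and -0.01. Choroid plexus RNA was uneven between arrays: Ttr, the thyroxine carrier of that tissue, was 12.86 in continuous replicate 10 and 7.89 to 10.44 in the other continuous arrays. The part of these cell types in the called changes was not tested.

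**Figure D4:**
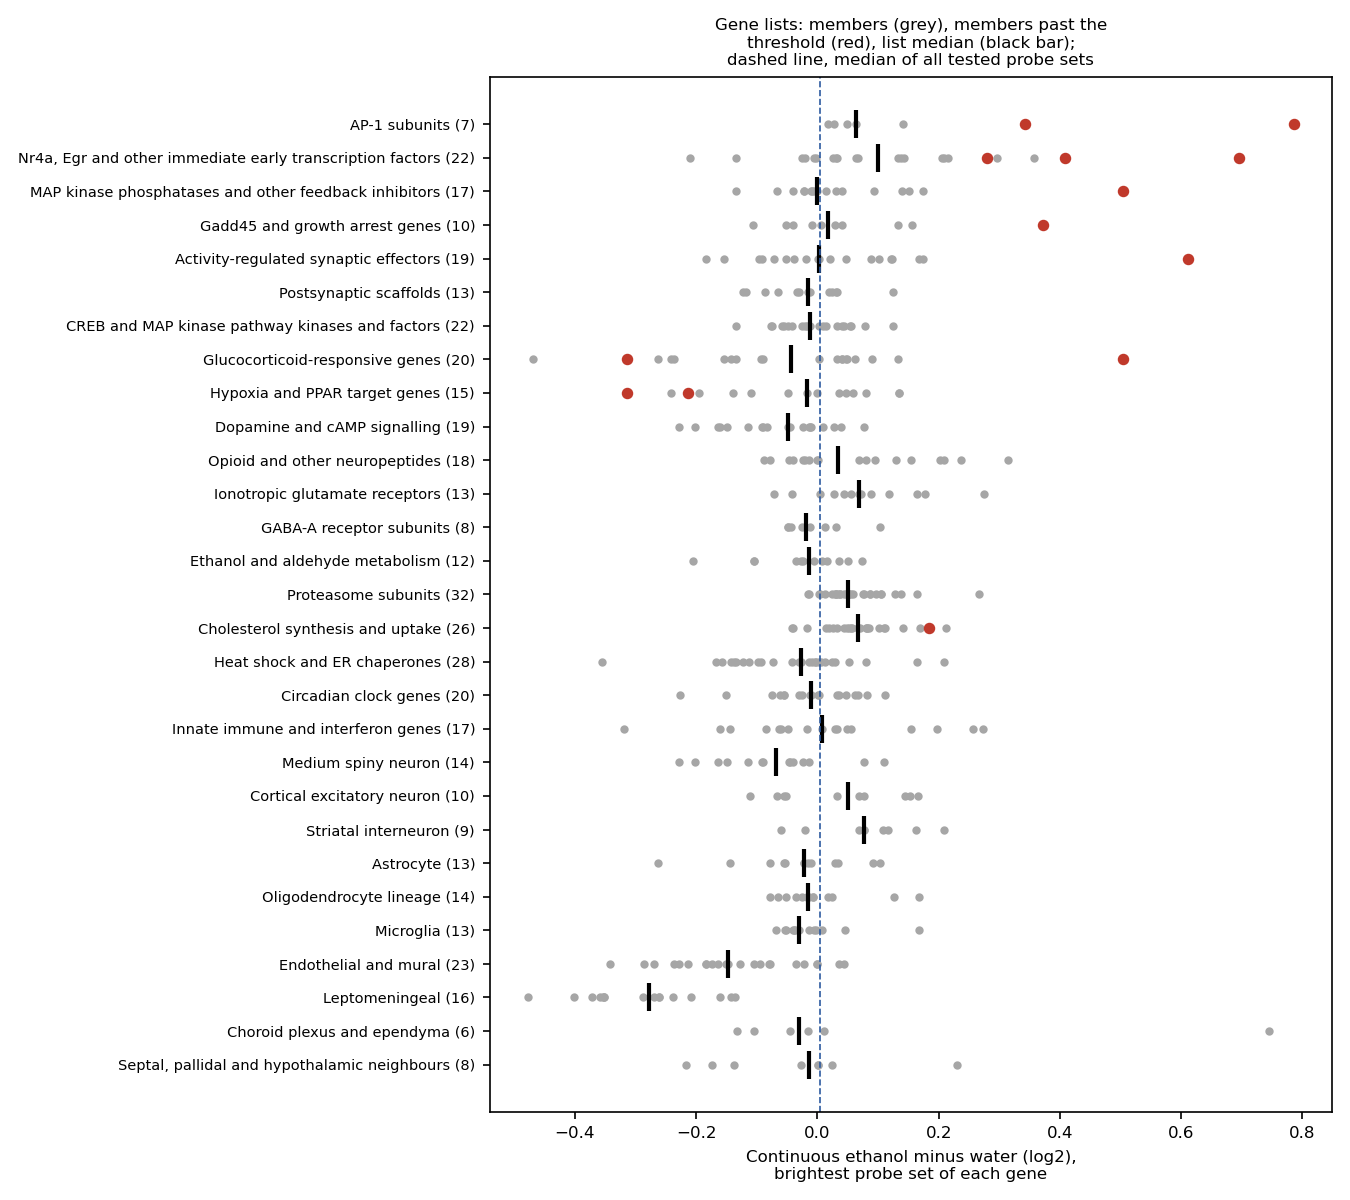
Difference of continuous and water means (log2, x axis) for each measured gene of the 29 lists (rows, number measured in parentheses), on its brightest probe set, with called genes in red and the list median as a black bar. The called members lie in the immediate early, phosphatase, Gadd45, effector, glucocorticoid, hypoxia and cholesterol lists, and the endothelial and leptomeningeal medians are the lowest, at -0.15 and -0.28.

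Limited access gave values between those of water and continuous ethanol for 32 of the 33 called probe sets. Both differences use the same water arrays, so their likeness is no independent evidence. The 33 were also chosen for the size of their continuous change. That choice by itself favours a smaller limited change, so the order of the groups is no evidence of a graded effect. The change with limited access had the same sign for 33 of 33 and was smaller for 32, the exception being Nat8f3 (-0.22 ± 0.04 against -0.21 ± 0.04). Fos was at 0.45 ± 0.12, Nr4a1 at 0.47 ± 0.09, Arc at 0.42 ± 0.11 and Gadd45g at 0.20 ± 0.05, and 0 of 21729 probe sets passed in limited minus water with limma, with 965 (4.44%) at an unadjusted p under 0.05.

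Of the 33, 19 had an unadjusted p under 0.05 in continuous minus limited, against 9.31% of all probe sets, a contrast that shares the continuous arrays with the one that chose them. After adjustment it called 1 of the 33, the Homer1 probe set that fell. Its limited arrays ranged from 9.70 to 10.50 (median 10.10), against 9.19 to 9.81 with continuous ethanol, a difference of -0.62 ± 0.10 (adjusted p = 0.0340). It was the 1 call in this contrast (0.0046% of those tested), and the count of such calls was 0 under 6 of the alternatives. It was also 0 without any of 14 of the 29 single arrays: continuous replicates 1, 2, 4, 6, 8, 9 and 10, limited replicates 3, 4, 6, 7 and 10, and water replicates 3 and 4. For the other Homer1 probe set the difference was 0.13 ± 0.15 (adjusted p = 0.802), for Junb 0.06 ± 0.06 (0.763) and for Fos 0.34 ± 0.12 (0.526). These p-values do not show that both schedules act alike.

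**Figure D5:**
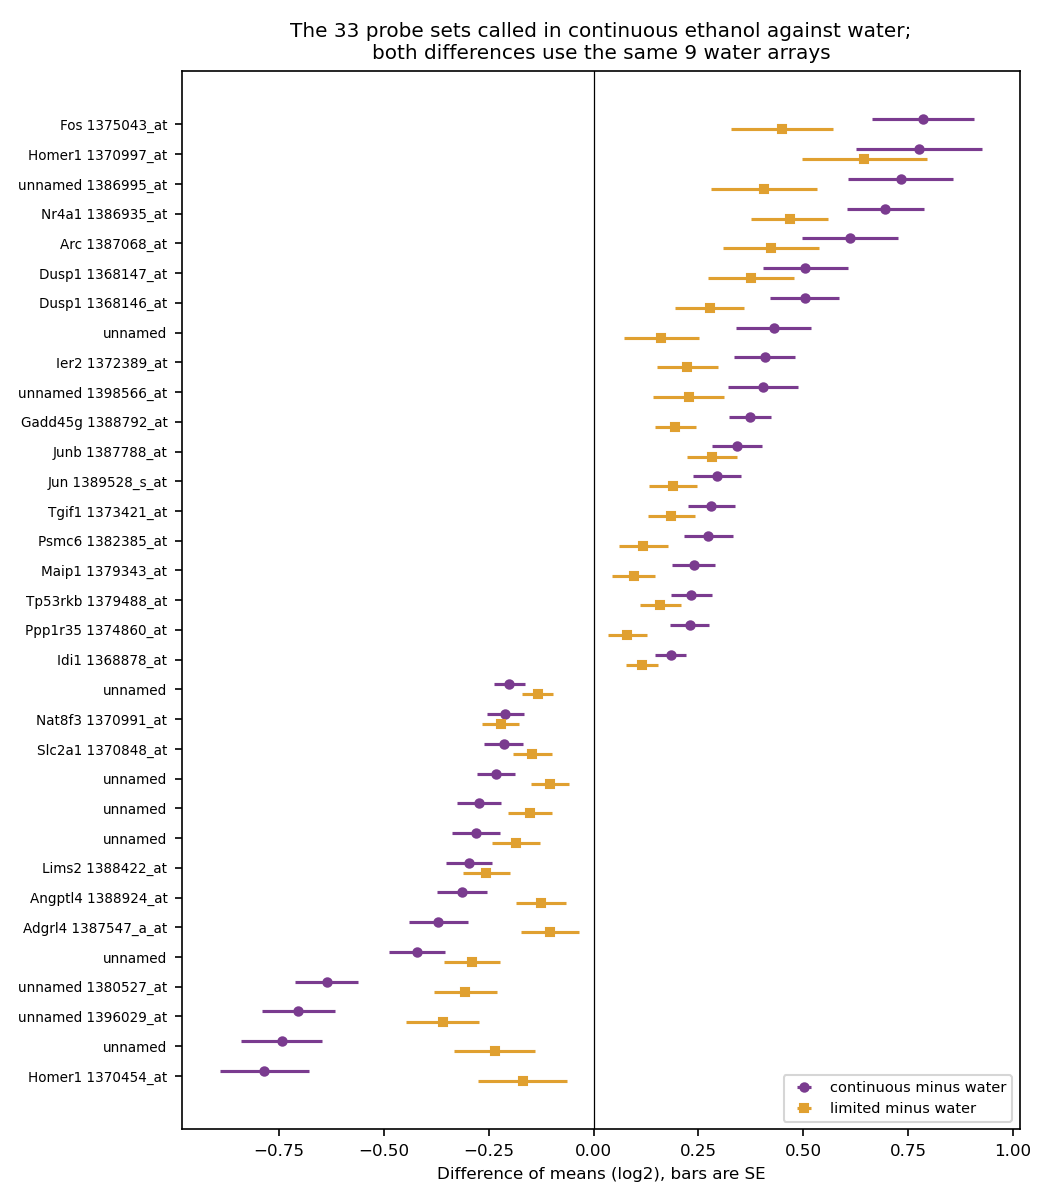
Differences from water (log2, x axis, bars are SE) of the 33 called probe sets (rows) for continuous ethanol (circles) and limited ethanol (squares), both against the same 9 water arrays. All 33 pairs lie on the same side of 0, and the widest gap is in the Homer1 probe set that fell, at -0.78 and -0.17.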

How the data were processed

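RNA of the accumbens shell was hybridised to 29 single-colour expression arrays. The deposited series table gives log2 expression per probe set, made by the authors with RMA, per the submitters' processing notes, a method of background correction, quantile normalization and probe set summary. Array medians lay between 8.17 and 8.21, and 0 pairs of arrays were identical. Quantile normalization forces arrays to a near-common distribution, so a shift of all genes cannot be seen. Of 31099 probe sets, 57 controls and those with a mean log2 at or below 6.86 (the dimmest 30 percent) were left out, leaving 21729. The platform annotation gave 1 symbol to 20826 probe sets, several to 436 and none to 9780, and 20758 symbols were updated by gene ID.

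Groups were fitted over all 29 arrays with limma 3.58.1 (lmFit, eBayes) in R 4.3.3, with Benjamini-Hochberg adjustment over 21729 probe sets and a threshold of 0.05. The number of arrays limits the precision. The fit was tested on simulated data. Alternatives changed the filter, the normalization, the variance prior, array weights, covariates and blocks, the probe sets per gene and the arrays used, and each array was left out in turn.

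Members and 29 gene lists (19 pathways, 10 cell type marker lists) were chosen with earlier results of these data known. A list gene was represented by its brightest probe set. Named were all genes with a called probe set, the 8 next genes in each direction, up to 3 genes of smallest p in each list, the 2 unnamed probe sets of smallest p in each direction, and Drd1, Drd2, Penk, Pdyn, Tac1 and Bdnf. Other genes named (such as Klf2, Klf4, Egr2, Egr4, Jund, Fosl2, Fosb, Batf, Gadd45a, Gadd45b, Manf and Calr) and 1 more unnamed probe set were chosen after their values were seen.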

Additional observations from a re-analysis of the deposited data

Results flagged for a closer look

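Within groups, 244 sets of values were examined for 1 array far from the others by Dixon's ratio, and chance alone marks about 1 in 20 of such sets. The log2 values that stood apart numbered 31, in 8 arrays. In continuous ethanol replicate 7 they were 1396029_at 8.39, Homer1 (rising probe set) 9.52, Ppp1r35 9.73, Per3 9.60, Aldh1l1 9.98, Aif1 10.82, Aldh7a1 11.23, Opalin 10.24, Aldh2 10.56, Aqp1 9.38 and C1qb 10.70. In continuous ethanol replicate 3 they were Gjb6 10.07, Igf2 9.78, Islr 7.92, Aldh1a2 8.86 and Slc17a6 8.95. In continuous ethanol replicate 10 they were Ttr 12.86 and Kcne2 7.34. In continuous ethanol replicate 4 it was Gria4 11.15. In water only replicate 2 they were Scg2 12.09, Aldh1a2 11.34, Calb2 8.84, Aqp1 9.59, Penk 13.32, Pdyn 11.22 and Tac1 12.15. In water only replicate 6 they were Hspa5 12.67, Socs3 7.53 and Cspg4 8.26. In water only replicate 5 it was Sesn1 10.73. In water only replicate 7 it was Dlgap1 10.62. 

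The Homer1 probe set that fell differed between the ethanol schedules, at -0.62 for continuous minus limited (limma, adjusted p = 0.0340). The call was lost under 5 alternatives, the probe set was not among those kept under 1 more (1 probe set per gene), and the call was lost without any of 14 of the 29 single arrays.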

How the results depend on the processing

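The direction of all 33 called changes was kept under the 15 alternatives, where fitted, and without each array in turn. The count of 33 was within 1.5 times under 10 of the 15 alternatives. It was 11 with the array SD as covariate, 21 with the endothelial and mural marker covariate, 12 when the 5 arrays that lay apart were left out, 14 with them as a block and 20 with 1 probe set per gene, where fewer probe sets were tested. For the others the cause was not tested. Leaving out 1 array gave 18 to 94 calls, and 17 of the 33 were kept without any 1 array. Whether replicate numbers pair the samples was not tested (5 of 9 pairs had a correlation over 0.1, range -0.18 to 0.33, and 2 of 9 matched their own number best). The replicate block gave 28 calls, 22 of them among the 33. The continuous minus limited count of 1 was 0 with the replicate block, the beta-actin and GAPDH covariate, the array SD covariate, the arrays apart left out or as a block, and 1 probe set per gene. It was 2 with the leptomeningeal covariate and 0 to 2 without 1 array, with 0 for 14 of the 29 arrays. Signs turned for uncalled genes only. With the endothelial covariate Islr was at 0.044, Aldh1a2 at 0.0034, Aqp1 at 0.057 and Kcne2 at 0.048. With the leptomeningeal covariate Aqp1 was at 0.027. Ctss was at 0.0081 without the arrays apart and 0.0029 with them as a block. Tac1 ranged from -0.049 to 0.010 over the fits without 1 array, above 0 in 3 of them.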
